A study of Homo sapiens with 12 samples.

Results

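The immediate early genes FOS, FOSB, FOSL1, JUN, JUNB, JUND, EGR1, IER2, IER3 and ATF3 were followed in human erythroleukemia cells of the K-562 line after depletion of the transcription factor MYB and after its replacement. The 10 genes were taken by symbol from a deposited table of 60658 genes. All 10 passed the filter on low values, which asked for 1 FPKM or more in 3 or more of the 12 libraries and left 13393 genes for testing. FPKM scales the sequenced fragments of a gene to its transcript length and to the mapped fragments of the library, so levels of different genes can be compared per length. FOSB met the limit in 8 libraries and the other 9 genes in all 12.

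Poly(A) RNA was sequenced from 4 groups of 3 libraries, all from stable lines selected with G418 and all collected 24 hours after siRNA transfection. The D152V rescue is a line that expresses 3xTY-D152V, a tagged MYB named for an amino acid substitution, and received the MYB siRNA si2992. The wild-type rescue is a line that expresses 3xTY-hcM and received the same siRNA; its sample titles call it MYB-WT. The MYB knockdown is a line with the 3xTY1 tag alone and si2992, and the control is the 3xTY1 line with the siGENOME non-targeting siRNA. Every group thus carries a stable construct and a transfected siRNA. Each rescue is a separate line, so a difference made by the introduced protein and a difference between lines cannot be told apart. The sources used here give neither the number of clones in a line nor the promoter of the constructs. The series describes the 3 libraries of a group as individual experiments, so p-values measure the spread between those.

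MYB itself was at 91.05 ± 8.11 FPKM in the D152V rescue, 124.1 ± 8.87 in the wild-type rescue, 30.2 ± 3.585 in the knockdown and 120.1 ± 14.2 in the control (mean ± SD, n = 3 each). The knockdown held 25.15% of the control level, and the table does not separate introduced from endogenous transcripts. Replicate 1 of the knockdown stood apart, with an FPKM total of 1215578 against 672616 to 798362 in the 11 other libraries. Its Pearson correlations within the knockdown group were 0.929 and 0.930, whereas no other pair within a group was under 0.983. Ribosomal protein genes held 22% of its FPKM total, 15.9% and 15% in the other knockdown libraries and 9.56% to 13.3% elsewhere. All 9 erythroid markers, including GATA1 and the embryonic globin HBE1, reached 1 FPKM in these cells. Of the markers of other cells, 6 of 7 monocyte and granulocyte genes, 3 of 6 lymphoid genes, 4 of 7 fibroblast and epithelial genes and both endothelial genes found stayed under 1 FPKM in every library, and ELANE, MS4A1 and CDH5 were at 0. Genes that reached 1 FPKM included LYZ, CD3D, NKG7, EPCAM, COL1A1 and COL1A2. In bulk RNA, fewer cells of a type and less RNA per cell cannot be told apart.

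Immediate early genes are transcribed within minutes of a growth factor, stress or serum signal without new protein synthesis. RAS and the ERK kinases act through serum response factor with its ternary complex partners, and protein kinases such as PKA act through CREB. FOS and JUN proteins pair through leucine zippers into the AP-1 factor, EGR1 is a zinc finger factor, and several of the induced products then switch the signal off. K-562 cells carry the BCR-ABL fusion kinase, which signals constantly through RAS, and AP-1 and EGR1 have been linked in this line to the choice between megakaryocytic and erythroid fates.

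Per length, FOSL1 had the highest median over the 12 libraries (26.5 FPKM), followed by JUND (21.5), EGR1 (16.1), IER3 (15.75), IER2 (15.7), JUNB (14.75) and JUN (12.3). ATF3 (3.62 FPKM), FOS (3.18) and FOSB (1.06) lay lowest. The ranges over libraries of neighbours in this order overlapped, except that the lowest JUN value (7.50 FPKM) was above the highest ATF3 value (4.72). By these ranges, neighbours within the first 7 genes are not resolved. The lowest JUND value (17.8 FPKM) was above the highest JUN value (16.8), so JUND lay above JUN.

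**Figure D1:**
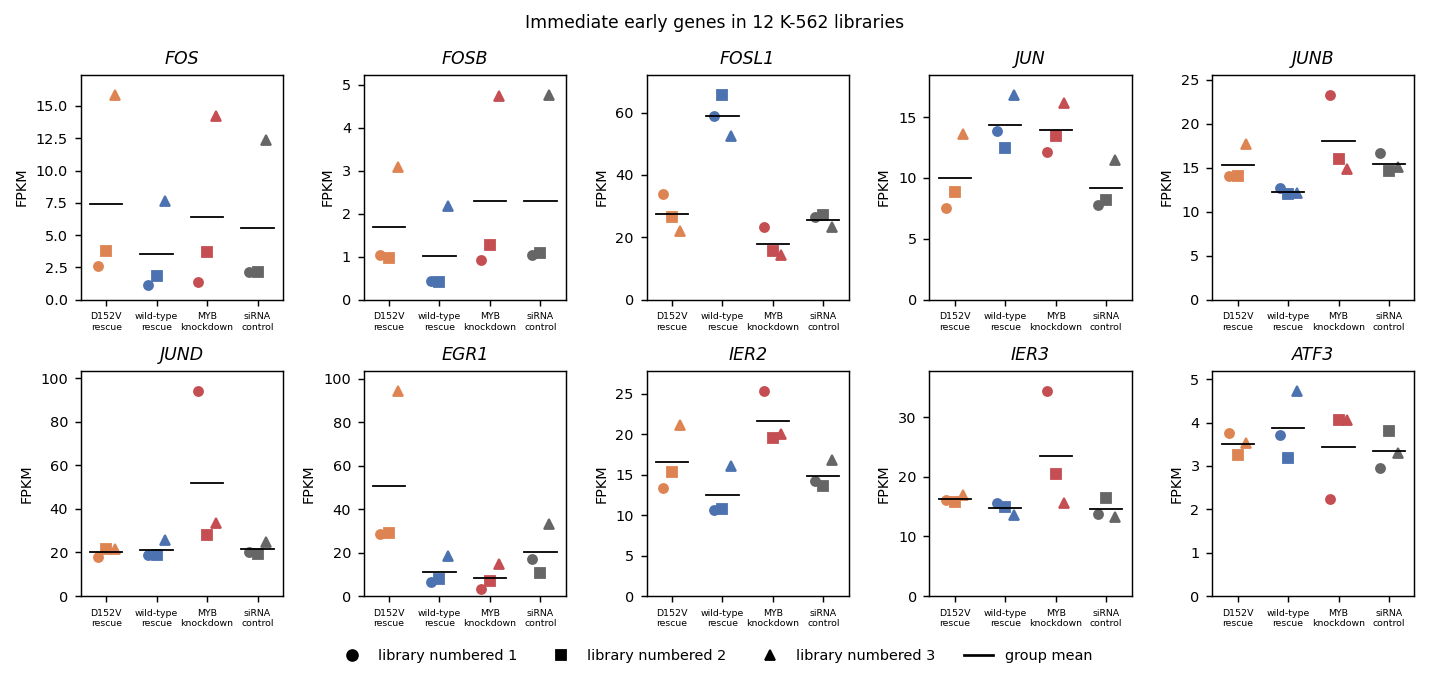
FPKM of each of the 10 genes (vertical axis, from 0) in the D152V rescue, wild-type rescue, MYB knockdown and control, left to right. Symbols mark the replicate number of a library and bars the group mean; FOSL1 stands highest in the wild-type rescue and EGR1 in the D152V rescue, while FOS and FOSB have a triangle (library numbered 3) on top in all 4 groups.

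The 6 comparisons between groups were tested in a single limma fit of log2(FPKM + 1) over all 13393 genes, with Benjamini-Hochberg adjustment and a gene called at an adjusted p under 0.05. Depletion of MYB, the knockdown against the control, called 0 of the 10 genes in limma, while 5 had an unadjusted p under 0.05, as did 32.0% of all tested genes. In that comparison 11.3% of all tested genes were called, 528 higher and 988 lower (664 and 807 after median-ratio scaling of the libraries, 888 and 1064 after quantile normalization). The median log2 difference of the 10 genes was 0.15, against -0.03 over all tested genes. Leaving out knockdown replicate 1 called FOSL1 and JUND, leaving out replicate 2 called JUND, and leaving out replicate 3 called IER3 and JUND. Of all tested genes these settings called 20.1%, 19.4% and 17.8%, against 11.3% with all libraries.

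The wild-type rescue against the knockdown called 4 of the 10 genes, FOSL1 higher and IER2, JUNB and JUND lower, where 37.6% of all tested genes were called (2765 higher and 2266 lower). The median log2 difference was -0.53 over the 10 genes and 0.03 over all tested genes. The D152V rescue against the knockdown called 3, EGR1 and FOSL1 higher and JUND lower, where 25.1% were called (1745 higher and 1610 lower). The medians were -0.21 and 0.02. Both shares of called members are near the background. The D152V rescue against the wild-type rescue called 2, EGR1 higher and FOSL1 lower, against 12.1% of tested genes (798 higher and 829 lower), and the medians were 0.21 and -0.03. Blocking on the replicate number raised this to 4, with EGR1 and FOS higher and FOSL1 and JUN lower, against 14.0% of tested genes. The wild-type rescue against the control called FOSL1 alone, as higher, with 9.62% of tested genes called (675 higher and 614 lower); the medians were -0.145 and -0.02. The D152V rescue against the control called 0 in limma, where 9.55% of tested genes were called (618 higher and 661 lower). At an unadjusted p under 0.05 in limma it had 0 of the 10 genes and 22.2% of all tested genes. The medians of this comparison were 0.08 and -0.035. These comparisons share groups and are not independent of each other.

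**Figure D2:**
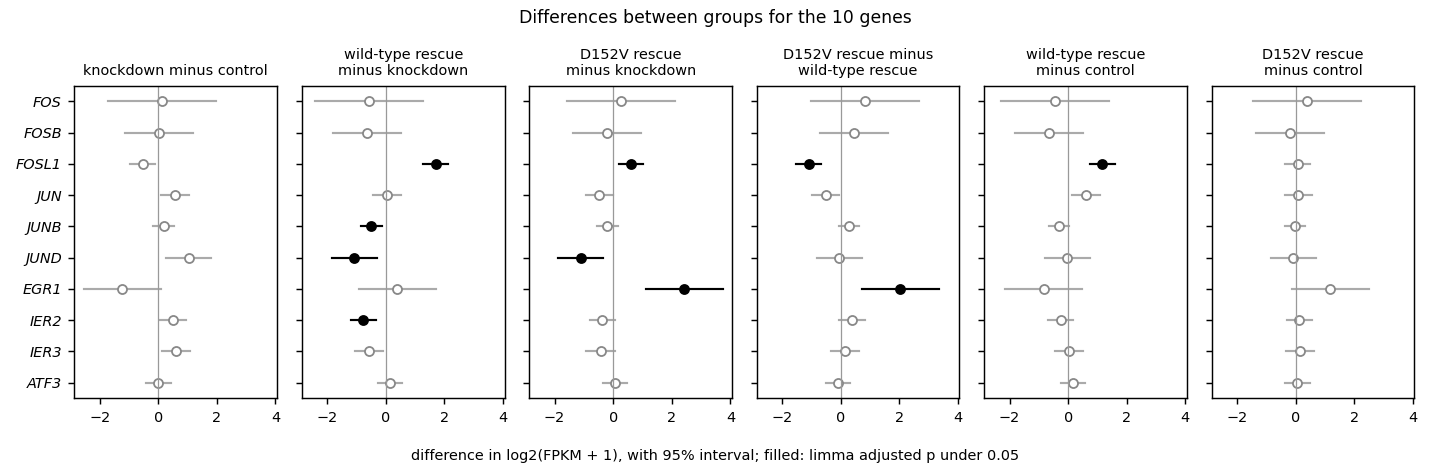
Difference in log2(FPKM + 1) (horizontal axis) of each gene in the 6 comparisons, with its 95% interval from limma. Filled points passed an adjusted p of 0.05, which FOSL1 did in 4 panels, EGR1 and JUND in 2 each and JUNB and IER2 in 1 each.

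Gene positions are those of RefSeq on GRCh38. FOSL1 (ENSG00000175592, chr11:65892049-65900545) encodes FRA-1, a FOS family protein that lacks the activation domain of FOS and is sustained by ERK. It was at 33.9, 26.4 and 21.95 FPKM in the D152V rescue libraries numbered 1, 2 and 3, at 58.8, 65.7 and 52.5 in the wild-type rescue, at 23.2, 15.6 and 14.4 in the knockdown, and at 26.6, 27.1 and 23.3 in the control. The 3 wild-type rescue libraries were above all 9 others, and every other pair of groups overlapped except the knockdown, whose highest library lay just under the lowest control library. FOSL1 rose in the wild-type rescue by 1.70 against the knockdown (SE 0.19, limma adjusted p = 0.000154), and this call held in all alternatives run. It rose there by 1.17 against the control (limma adjusted p = 0.00327), so that the wild-type rescue held 229.6% of the control level. In the D152V rescue FOSL1 was lower than in the wild-type rescue by 1.09 (log2 difference -1.09, SE 0.19, limma adjusted p = 0.00323; 0.00118 with the block), with ratios of 0.576, 0.402 and 0.418 between libraries of the same number. Both calls held without each single library, and both missed the threshold without the 4 libraries numbered 3 (limma adjusted p = 0.0631 against the control and 0.0566 between the rescues).

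The D152V rescue lay at 106.7% of the control level for FOSL1, with a log2 difference of 0.07 (95% interval -0.35 to 0.49). Against the knockdown FOSL1 rose in the D152V rescue by 0.61 (limma adjusted p = 0.0399), yet those groups overlapped. That call ended without any 1 library other than knockdown replicate 1 and D152V replicate 3, with an adjusted p of up to 0.144. It also ended under median-ratio scaling, without a filter, with only the 6 libraries compared and without the 4 libraries numbered 3. The highest limma adjusted p over all alternatives was 0.169. The knockdown itself held 69.0% of the control level (log2 difference -0.54, limma adjusted p = 0.0869). Without knockdown replicate 1 the difference was -0.74 with a limma adjusted p of 0.00789, and what that library contributes was not tested further.

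FOS (ENSG00000170345, chr14:75278828-75282230) and FOSB (ENSG00000125740, chr19:45467996-45475179) encode the FOS family members most rapidly induced by serum, and both form AP-1 only with a JUN partner. FOS was at 2.64, 3.79 and 15.85 FPKM in the D152V rescue libraries numbered 1, 2 and 3, at 1.13, 1.79 and 7.65 in the wild-type rescue, at 1.34, 3.72 and 14.2 in the knockdown, and at 2.11, 2.14 and 12.4 in the control. FOSB was at 1.04, 0.961 and 3.09 FPKM in the D152V rescue, at 0.423, 0.412 and 2.19 in the wild-type rescue, at 0.931, 1.26 and 4.73 in the knockdown, and at 1.03, 1.09 and 4.76 in the control. For both genes the library numbered 3 was the highest of every group, and all groups overlapped. Within each number the wild-type rescue was the lowest group for both genes. Neither gene was called in any of the 6 comparisons.

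The D152V rescue exceeded the wild-type rescue in FOS by ratios of 2.33, 2.115 and 2.07 within numbers 1, 2 and 3. The log2 difference was 0.84, with a limma adjusted p of 0.622 without the block and 0.0147 with it. For FOSB the ratios were 2.46, 2.335 and 1.41, and the log2 difference of 0.45 had a limma adjusted p of 0.685 without the block and 0.069 with it. The 2 fits share the same differences and differ in whether the spread between numbers counts as error.

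The promoters of FOS and FOSB are shown because both genes had their highest value of every group in the library numbered 3. Each line gives the 250 bases before the start site, 5′ to 3′ in the direction of the gene, from RefSeq on GRCh38.p14, with the CRE core TGACG in capitals. FOS lies at chr14:75278578-75278827 and FOSB at chr19:45467746-45467995, both on the plus strand. Each has 1 CRE core, 64 bases before the start for FOS and 60 for FOSB, followed by a TATAAA box.
FOS: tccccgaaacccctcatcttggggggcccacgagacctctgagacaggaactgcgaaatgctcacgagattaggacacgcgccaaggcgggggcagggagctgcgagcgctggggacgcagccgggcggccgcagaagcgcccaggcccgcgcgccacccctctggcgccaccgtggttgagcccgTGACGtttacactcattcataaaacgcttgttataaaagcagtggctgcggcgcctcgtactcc
FOSB: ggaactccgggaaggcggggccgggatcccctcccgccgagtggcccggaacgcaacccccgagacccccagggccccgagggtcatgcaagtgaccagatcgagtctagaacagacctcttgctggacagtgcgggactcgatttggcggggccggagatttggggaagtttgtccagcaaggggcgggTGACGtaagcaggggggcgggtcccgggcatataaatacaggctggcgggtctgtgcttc

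A search for TGACG on both strands of 300-base windows (250 before to 50 after the start) matched 24.6% of all 35116 RefSeq promoters and 7 of the 9 promoters found for 8 of the 10 genes. ATF3 has 2 promoters in that table, and both lack the letters in this window.

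EGR1 (ENSG00000120738, chr5:138465479-138469303) is an early zinc finger factor whose own co-repressors NAB1 and NAB2 belong to its targets. It was at 28.7, 29.15 and 94.2 FPKM in the D152V rescue libraries numbered 1, 2 and 3, at 6.295, 7.83 and 18.4 in the wild-type rescue, at 3.315, 7.06 and 14.9 in the knockdown, and at 17.25, 10.6 and 33.0 in the control. All D152V rescue libraries were above all wild-type rescue and knockdown libraries, whereas the D152V rescue and the control overlapped. Group means were 50.7 ± 37.7 FPKM in the D152V rescue, 10.85 ± 6.605 in the wild-type rescue, 8.44 ± 5.935 in the knockdown and 20.29 ± 11.50 in the control (SD, n = 3 each). The library numbered 3 was the highest in every group.

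EGR1 rose in the D152V rescue by 2.42 against the knockdown (SE 0.60, limma adjusted p = 0.0158). Without D152V replicate 3 this difference was 1.865 with a limma adjusted p of 0.0609, and without knockdown replicate 1 it was 1.96 with 0.0277. Against the wild-type rescue EGR1 was higher in the D152V rescue by 2.03 (SE 0.60, limma adjusted p = 0.0491; 0.000755 with the block), in ratios of 4.56, 3.72 and 5.11 within numbers 1, 2 and 3. In the fit without the block the call ended when any D152V or control library, wild-type replicate 1 or 2 or knockdown replicate 2 was left out, with limma adjusted p from 0.0508 to 0.184. With all 4 libraries numbered 3 left out it held, at a log2 difference of 1.90 (limma adjusted p = 0.0303). Summed levels of 4 marker lists in these rescues are given as description only. The share of all tested genes whose libraries do not overlap between these rescues was not computed. The summed lymphoid list, carried by CD3D, ran from 80.7 to 114 FPKM in the D152V rescue and from 38.4 to 64.7 in the wild-type rescue, and the monocyte and granulocyte list ran from 4.14 to 5.42 FPKM in the D152V rescue and from 11.25 to 14.3 in the wild-type rescue. The fibroblast and epithelial list, carried by EPCAM, ran from 33.2 to 39.1 FPKM in the D152V rescue and from 53.8 to 76.4 in the wild-type rescue, and the erythroid list from 2205 to 3762 in the D152V rescue and from 958.8 to 2006 in the wild-type rescue. The part of these lists in the EGR1 and FOSL1 differences between the rescues was not tested, and CD79A and CD3E stayed under 1 FPKM in every library.

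The D152V rescue held 249.8% of the control level of EGR1, a log2 difference of 1.19 (95% interval -0.13 to 2.505, limma adjusted p = 0.283). The wild-type rescue held 53.5% and the knockdown 41.6% of the control level, with log2 differences of -0.84 and -1.23 (limma adjusted p = 0.456 and 0.18). The wild-type rescue and the knockdown differed by 0.39 in EGR1 (95% interval -0.93 to 1.71). Their libraries overlapped.

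The EGR1 promoter is shown because EGR1 separated the rescues most widely of the 10 genes. The 250 bases before the start, chr5:138465229-138465478 on the plus strand of GRCh38.p14 (RefSeq), hold 2 CArG boxes, the serum response factor motif, in capitals of 10 letters. They begin 105 and 83 bases before the start. Capitals of 5 letters mark CGTCA, the CRE core on the other strand, 135 and 66 bases before the start.
EGR1: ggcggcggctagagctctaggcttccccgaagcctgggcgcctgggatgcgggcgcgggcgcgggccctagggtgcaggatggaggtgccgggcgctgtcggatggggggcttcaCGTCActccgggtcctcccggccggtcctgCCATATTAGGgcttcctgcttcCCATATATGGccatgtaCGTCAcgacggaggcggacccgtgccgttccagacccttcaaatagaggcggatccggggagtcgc

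Within the 300-base window, a CArG box on either strand occurred in 1.29% of all RefSeq promoters and in no other of the 9 promoters found for these genes. Sites farther from the start were not searched, so the other genes may hold a CArG box outside this window. The match describes letters in a window and no measured binding.

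JUN (ENSG00000177606, chr1:58780791-58784047) is the principal partner of FOS in AP-1 and activates its own gene. It was at 7.50, 8.85 and 13.6 FPKM in the D152V rescue libraries numbered 1, 2 and 3, at 13.9, 12.5 and 16.8 in the wild-type rescue, at 12.1, 13.5 and 16.2 in the knockdown, and at 7.78, 8.19 and 11.48 in the control. All libraries of the wild-type rescue and of the knockdown were above all control libraries, and the library numbered 3 was the highest of every group. No comparison was called. The wild-type rescue held 157.2% and the knockdown 152.3% of the control level (log2 differences 0.61 and 0.57, limma adjusted p = 0.105 and 0.101). The wild-type rescue passed once knockdown replicate 1 was left out (limma adjusted p = 0.0404). That comparison holds no knockdown library, so its difference did not move. Of all tested genes 29.7% were then called in it, against 9.62% with all libraries. Between the rescues JUN was lower in D152V (log2 difference -0.515), with a limma adjusted p of 0.159 without the block and 0.0211 with it. Without D152V replicate 3, JUN passed as lower in the D152V rescue, at -0.74 from the wild-type rescue and -0.70 from the knockdown (limma adjusted p = 0.0477 and 0.0445). That setting takes the highest library from the D152V rescue alone and keeps number 3 in the other groups. With all 4 libraries numbered 3 left out, neither difference passed.

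JUND (ENSG00000130522, chr19:18279694-18281622) is the JUN family member kept high in resting cells, and it restrains growth in several cell types. It was at 17.8, 21.6 and 21.45 FPKM in the D152V rescue libraries numbered 1, 2 and 3, at 18.6, 18.95 and 25.8 in the wild-type rescue, at 94.05, 28.3 and 33.8 in the knockdown, and at 20.2, 19.45 and 24.8 in the control. All 3 knockdown libraries were above the 9 others, and knockdown replicate 1, the library that stands apart, was the highest by far. JUND fell by 1.07 in the wild-type rescue against the knockdown (SE 0.35, limma adjusted p = 0.0328). Against the same libraries it fell by 1.11 in the D152V rescue, at a limma adjusted p of 0.0382. Without knockdown replicate 1 these differences were -0.54 and -0.59, with limma adjusted p of 0.0155 and 0.0152. The wild-type call ended without wild-type replicate 1 or 2, and the D152V call without any D152V or control library or wild-type replicate 1 or 2, with limma adjusted p of up to 0.0975 and 0.11.

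The knockdown held 242.2% of the control level of JUND (log2 difference 1.04, SE 0.35, limma adjusted p = 0.0727). Without knockdown replicate 1 the difference was 0.51 and passed (limma adjusted p = 0.0407). It also passed without knockdown replicate 2 (1.36, limma adjusted p = 0.0276) and without knockdown replicate 3 (1.24, limma adjusted p = 0.0477). The ratio of knockdown to control within numbers was 4.66, 1.45 and 1.36. The D152V rescue held 94.4% and the wild-type rescue 98.4% of the control level of JUND, with 95% intervals of the log2 difference of -0.84 to 0.69 and -0.79 to 0.73.

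The JUND promoter, 250 bases of chr19:18281623-18281872 on the minus strand of GRCh38.p14 (RefSeq), is shown as the only one of the 9 with the whole CRE, TGACGTCA. It begins 200 bases before the start, and capitals further on mark another CRE core 86 bases before it.
JUND: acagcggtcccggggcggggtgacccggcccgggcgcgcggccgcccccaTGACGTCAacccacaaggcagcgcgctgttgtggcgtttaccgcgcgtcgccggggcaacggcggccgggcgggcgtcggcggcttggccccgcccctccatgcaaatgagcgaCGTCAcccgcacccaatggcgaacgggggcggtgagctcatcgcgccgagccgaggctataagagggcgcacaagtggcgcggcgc
The whole CRE was found in 1.85% of all RefSeq promoters on either strand, and it contains the CRE core on both strands.

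JUNB (ENSG00000171223, chr19:12791486-12793315) competes with JUN for FOS partners and often opposes it. It was at 14.1, 14.05 and 17.7 FPKM in the D152V rescue libraries numbered 1, 2 and 3, at 12.72, 12.02 and 12.10 in the wild-type rescue, at 23.3, 16.0 and 14.9 in the knockdown, and at 16.67, 14.63 and 15.11 in the control. The wild-type rescue was below all 9 other libraries, and its 3 values lay within 1 FPKM of each other. JUNB fell in the wild-type rescue against the knockdown (log2 difference -0.495, SE 0.16, limma adjusted p = 0.0328). The call ended without any of the 3 wild-type libraries, with a limma adjusted p of up to 0.0892. It also ended once each library's trend with transcript length was removed (-0.30, limma adjusted p = 0.0639). Without knockdown replicate 1 the wild-type rescue passed as lower than the knockdown (-0.31, limma adjusted p = 0.0396) and than the control (-0.31, limma adjusted p = 0.0338). The D152V rescue then passed as higher than the wild-type rescue (0.29, limma adjusted p = 0.0444). The comparisons with the control and between the rescues hold no knockdown library, so their differences did not move. In them 29.7% and 31.4% of all tested genes were then called, against 9.62% and 12.1% with all libraries.

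IER2 (ENSG00000160888, chr19:13150411-13154911) is a short-lived nuclear protein of the early response, and IER3 (ENSG00000137331, chr6:30743199-30744547) is an early survival factor of the ERK and NF-κB pathways. IER2 was at 13.4, 15.4 and 21.1 FPKM in the D152V rescue libraries numbered 1, 2 and 3, at 10.6, 10.7 and 16.1 in the wild-type rescue, at 25.3, 19.55 and 20.0 in the knockdown, and at 14.2, 13.6 and 16.85 in the control. All knockdown libraries were above all wild-type rescue and control libraries. IER2 fell in the wild-type rescue by 0.76 against the knockdown (SE 0.20, limma adjusted p = 0.0123), and by 0.65 without knockdown replicate 1 (limma adjusted p = 0.0195). The call ended without wild-type replicate 2 (-0.67, limma adjusted p = 0.0534). The knockdown held 145% of the control level of IER2 (log2 difference 0.50, limma adjusted p = 0.111).

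IER3 was at 16.1, 15.8 and 16.9 FPKM in the D152V rescue libraries numbered 1, 2 and 3, at 15.7, 14.9 and 13.6 in the wild-type rescue, at 34.4, 20.5 and 15.7 in the knockdown, and at 13.8, 16.5 and 13.3 in the control. Knockdown replicate 1 was the highest of the 12, and the 2 rescue groups lay close to the control. IER3 was not called in any comparison. Its knockdown difference from the control was 0.59 (limma adjusted p = 0.0941), 0.29 without knockdown replicate 1 (0.12) and 0.83 without knockdown replicate 3 (0.022). Without knockdown replicate 3, IER3 also passed as lower in the wild-type rescue and the D152V rescue than in the knockdown (-0.81 and -0.675, limma adjusted p = 0.00835 and 0.0247). The wild-type rescue's difference from the knockdown, -0.57 at a limma adjusted p of 0.059, passed under quantile normalization (0.0314) and median-ratio scaling (0.0494). It was -0.27 without knockdown replicate 1 (0.0946) and -0.19 with each library's trend with transcript length removed (0.305). With that trend removed, IER3 in the knockdown differed from the control by 0.30 (limma adjusted p = 0.167), and the D152V rescue's difference from the knockdown was -0.08, against -0.43 otherwise.

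ATF3 (ENSG00000162772, chr1:212565407-212620777) is a stress-induced factor of the ATF and CREB family that pairs with JUN proteins. It was at 3.76, 3.25 and 3.54 FPKM in the D152V rescue libraries numbered 1, 2 and 3, at 3.70, 3.19 and 4.72 in the wild-type rescue, at 2.23, 4.05 and 4.05 in the knockdown, and at 2.95, 3.80 and 3.30 in the control. All 4 groups overlapped, and no call was made in any setting run. Its differences from the control were 0.06 in the D152V rescue (95% interval -0.36 to 0.47), 0.16 in the wild-type rescue (-0.26 to 0.57) and 0.01 in the knockdown (-0.41 to 0.42).

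FOS, FOSB, EGR1 and JUN shared a pattern over the replicate numbers that crossed the groups. The library numbered 3 exceeded the mean of those numbered 1 and 2 by ratios of 4.93 to 5.82 in FOS, 3.085 to 5.24 in FOSB, 2.37 to 3.26 in EGR1 and 1.265 to 1.66 in JUN, the range being over the 4 groups. In FOSL1 the ratios were 0.728 to 0.868, so the library numbered 3 was the lowest of every group. JUND, JUNB, IER2, IER3 and ATF3 had the library numbered 3 on top in 2, 1, 3, 1 and 1 of the 4 groups. The sources used here do not say what a number stands for beyond an individual experiment.

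The replicate number was also tested as a term of its own, by an F test in the limma fit with the block, a test chosen after these values were seen. Over all 12 libraries 4 of 13393 genes passed (0.0299%), among them FOS (limma adjusted p = 0.00496) and FOSB (0.0123). FOS was higher in the libraries numbered 3 than in those numbered 1 by 2.26 on the log2 scale and FOSB by 1.31. EGR1 had a log2 difference of 1.47 and a limma adjusted p of 0.0723. Without knockdown replicate 1, 5.03% of the genes passed, among them FOS (limma adjusted p = 0.000106), FOSB (0.00199), EGR1 (0.00423) and JUN (0.0312). FOSL1 and the other 5 genes passed in neither fit.

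**Figure D3:**
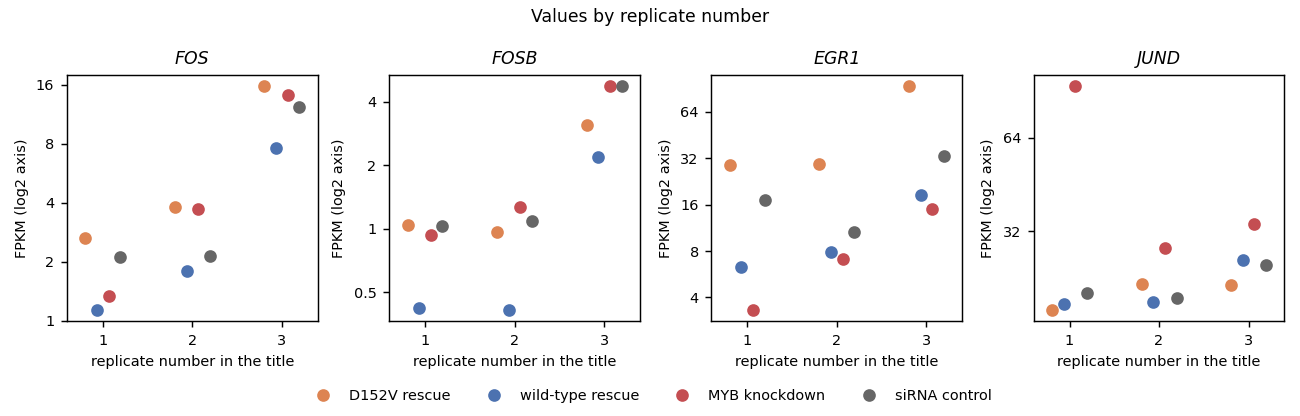
FPKM (log2 axis) of FOS, FOSB, EGR1 and JUND against the replicate number in the sample title, with groups in colour and set slightly apart. FOS, FOSB and EGR1 have their highest value of each group at number 3, whereas JUND has a single high point, the knockdown library numbered 1 at 94.05 FPKM.

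Across the 12 libraries, Pearson's r of log2(FPKM + 1) paired FOS with FOSB most closely (r = 0.939), followed among the 10 genes by JUND with IER3 (0.838), JUNB with IER2 (0.785) and JUNB with IER3 (0.778). FOS and EGR1 had r of 0.707. These points share groups and replicate numbers, and knockdown replicate 1 is high in JUND, JUNB, IER2 and IER3, so they serve as description only. Of all tested genes the most alike in pattern was COPE for JUND (r = 0.993), CENPN for IER3 (0.968), PCNPP3 for FOSL1 (0.965), TMEM9 for IER2 (0.961), ZFYVE27 for FOSB (0.960), CEP152 for EGR1 (0.957), HEXD for JUNB (0.954), CA8 for JUN (0.946) and POC1B-GALNT4 for ATF3 (0.920), each over 12 libraries. The closest to FOS was FOSB itself.

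The counts of the related lists stand beside shares of 11.3% of all tested genes called in the knockdown against the control, 37.6% in the wild-type rescue and 25.1% in the D152V rescue against the knockdown, and 12.1% between the rescues. Among 14 tested genes of other AP-1 and related leucine zipper factors, MYB knockdown against control called 1 higher and 2 lower. CREB1, the cyclic AMP response factor, fell to 6.80 ± 0.824 FPKM in the knockdown, against 13.9 ± 1.575 in the control (log2 difference -0.93, limma adjusted p = 0.00347). The wild-type rescue called 3 higher and 3 lower and the D152V rescue 2 higher and 4 lower, each against the knockdown. CREB1 rose to 11.8 ± 0.801 FPKM in the wild-type rescue (log2 difference from the knockdown 0.71, limma adjusted p = 0.00176). BATF2, an inhibitor of AP-1, fell against the control in both rescues, at 1.83 ± 0.548 FPKM in D152V and 1.88 ± 0.239 in wild type against 6.18 ± 0.230 in the control (log2 differences -1.36 and -1.32, limma adjusted p = 0.000544 and 0.000817). Median log2 differences of the list were 0.13 for the knockdown against the control, -0.235 for the wild-type rescue and -0.02 for the D152V rescue against the knockdown, where all tested genes had -0.03, 0.03 and 0.02.

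Among 24 tested other immediate early genes, the knockdown called 2 higher and 2 lower. MYC fell to 96.7 ± 23.45 FPKM in the knockdown, against 204.4 ± 22.65 in the control (log2 difference -1.095, limma adjusted p = 0.00738). Against the knockdown, 9 were higher and 2 lower in the wild-type rescue, and 8 higher and 3 lower in the D152V rescue. The orphan nuclear receptor NR4A1 rose to 3.49 ± 0.4915 FPKM in the D152V rescue, against 0.924 ± 0.728 in the knockdown (log2 difference 1.28, limma adjusted p = 0.00298). BTG1, an antiproliferative gene, fell to 8.17 ± 0.8375 FPKM in the wild-type rescue, against 31.2 ± 11.55 in the knockdown (log2 difference -1.76, limma adjusted p = 0.000192). Between the rescues 3 were higher and 4 lower in D152V. BTG2, its antiproliferative relative, was at 19.9 ± 1.05 FPKM in D152V and 8.26 ± 0.959 in wild type (log2 difference 1.18, limma adjusted p = 0.000184), the side on which EGR1 also lay. Means on the other side included ZFP36L2, at 24.6 ± 2.56 FPKM in D152V and 44.3 ± 2.04 in wild type. MYC was at 117.3 ± 17.5 FPKM in D152V and 185.1 ± 8 in wild type.

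Among 19 tested ERK feedback genes, the targets and inhibitors through which the ERK signal is read and damped, the knockdown called 1 higher and 2 lower. Against the knockdown, 5 were higher and 2 lower in the wild-type rescue, and 6 higher and 1 lower in the D152V rescue. LIF, a cytokine, was at 19.1, 15.65 and 5.01 FPKM in the D152V rescue libraries numbered 1, 2 and 3 and at 0.220, 1.18 and 0.385 in the knockdown. It rose by 3.03 (limma adjusted p = 0.00125), and its library numbered 3 was the lowest of the D152V group, opposite to EGR1. SPRY4, an inhibitor of RAS signalling, rose to 9.995 ± 2.47 FPKM in the D152V rescue, against 3.53 ± 0.990 in the knockdown (log2 difference 1.275, limma adjusted p = 0.00212). PHLDA1, an ERK-responsive gene, was at 2.975 ± 0.485 FPKM in the D152V rescue and 6.79 ± 1.18 in the wild-type rescue, against 0.894 ± 0.0789 in the control. PHLDA1 rose against the control in both rescues, by 1.06 in D152V (limma adjusted p = 0.00242) and by 2.03 in wild type (4.32e-05). Between the rescues 3 genes of this list were called higher and 3 lower in D152V. PHLDA1 was lower in D152V than in wild type (log2 difference -0.965, limma adjusted p = 0.00328), the order that FOSL1 took. The mean of LIF lay the other way, at 13.24 ± 7.33 FPKM in D152V and 2.75 ± 1.29 in wild type.

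Among 25 tested kinases and adaptors of the RAS, ERK, JNK and p38 cascades, the knockdown called 4, all lower, where 988 of the 1516 genes called over the whole table were lower. MAPK9, the JNK2 kinase that phosphorylates JUN, fell to 10.8 ± 1.39 FPKM in the knockdown, against 24.0 ± 1.52 in the control (log2 difference -1.09, limma adjusted p = 0.00238). Against the knockdown, 7 were higher in each rescue, with 3 lower in the wild-type rescue and 2 in the D152V rescue, so that 10 and 9 of the 25 were called where the whole table had 37.6% and 25.1%. SOS1, the exchange factor that loads RAS with GTP, rose to 31.45 ± 7.56 FPKM in the wild-type rescue, against 7.79 ± 2.43 in the knockdown (log2 difference 1.90, limma adjusted p = 0.000208). MAPK8, the JNK1 kinase, was at 15.9 ± 2.42 FPKM in the D152V rescue and 27.15 ± 0.612 in the wild-type rescue (log2 difference -0.74, limma adjusted p = 0.00646).

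Among 18 tested genes for serum response factor, its ternary complex and MRTF partners, CREB1 and their coactivators and targets, the knockdown called 3, all lower. Against the knockdown 10 were called in the wild-type rescue and 7 in the D152V rescue, all higher. Over all tested genes 37.6% were called in the wild-type rescue (2765 higher and 2266 lower) and 25.1% in the D152V rescue (1745 higher and 1610 lower). The list's median log2 difference was 0.57 in the wild-type rescue and 0.29 in the D152V rescue, against 0.03 and 0.02 over all tested genes. ELK4, a ternary complex factor, rose to 15.65 ± 2.44 FPKM in the wild-type rescue, against 6.42 ± 0.510 in the knockdown (log2 difference 1.16, limma adjusted p = 0.000184). EP300, a coactivator that binds MYB and CREB, rose to 8.59 ± 0.634 FPKM in the D152V rescue and 9.275 ± 0.701 in the wild-type rescue, against 4.35 ± 1.44 in the knockdown (limma adjusted p = 0.00761 and 0.00245). Knockdown replicate 1 differs from the other knockdown libraries in many genes, and its part in these list counts was not tested.

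**Figure D4:**
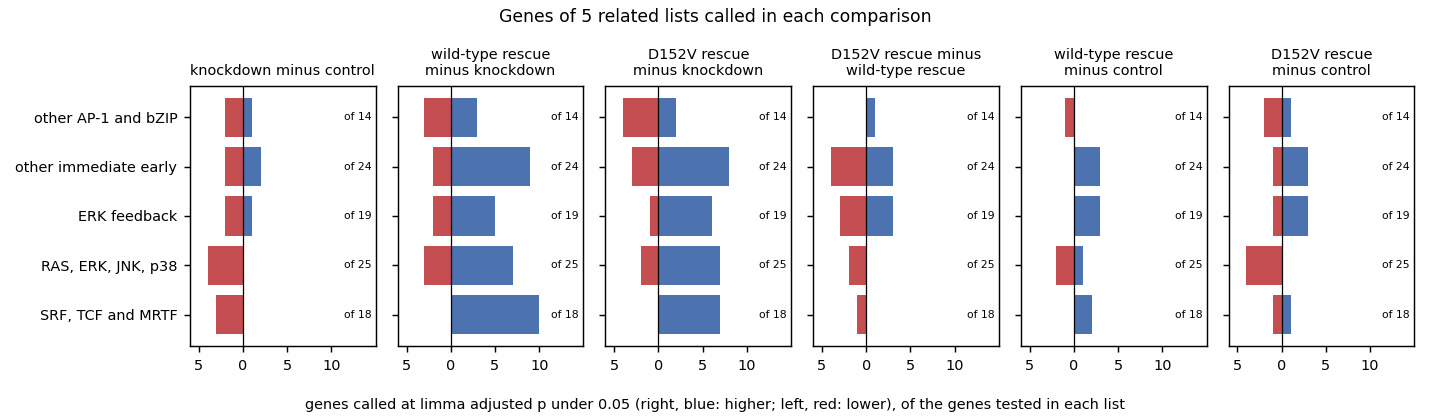
Number of genes called (horizontal axis, higher to the right and lower to the left of 0) in 5 related lists for the 6 comparisons, with the number tested beside each bar. The list of serum response factor and its partners had 10 of 18 called in the wild-type rescue, all of them higher than in the knockdown.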

How the data were processed

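RNA was sequenced from 12 libraries of K-562 stable lines, 3 in each of 4 groups taken from the sample titles. The authors deposited 1 table of FPKM values per gene, with a column for each library and 60658 rows, of which 56950 have a symbol and 31954 are at 0 throughout. The submitters' processing notes name GRCh38 and, in no stated role, Cufflinks 2.2.1, TopHat2 2.0.13, Trimmomatic 0.33 and bcl2fastq 2.17.1.14. The sources used here do not give the annotation, the Cufflinks program or the use of strand. FPKM depends on transcript length and on the most abundant transcripts of a library. Whole reads could not be recovered, since a median of 4.05% of ratios between low values lay within 2% of a common step, so depth is unknown and no count test was used.

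Genes that reached 1 FPKM in 3 or more libraries were kept, and log2(FPKM + 1) was fitted with limma 3.58.1 in R 4.3.3: 4 group means, a variance trend, 8 residual degrees of freedom, 6 contrasts and Benjamini-Hochberg adjustment over 13393 genes. Log2 differences on this scale understate changes of low genes. The fit was tested on simulated data. For each of the 10 genes, and for their mean, the tested genes with the highest Pearson r over the 12 libraries were also named. Coordinates and promoters come from RefSeq tables on GRCh38, and tables were made with Python 3.11.15, pandas 2.3.3 and matplotlib 3.10.9. Alternative normalizations were median-ratio scaling, quantile normalization and removal of a library's length trend, the last also with the block. Alternative fits used robust moderation, a replicate block, the 6 libraries of a comparison alone, or 11 libraries at a time. Other settings were no filter, a filter at a mean FPKM of 5, a pseudocount of 0.1 and a threshold of 0.01; leaving out the 4 libraries numbered 3 and the block in 11 libraries without knockdown replicate 1 were added after seeing the data.

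Replicate numbers were taken to pair the rescue libraries, where same-numbered libraries had correlated deviations from their group means (r = 0.169, 0.153 and 0.233 over tested genes for D152V against wild type); this comes from the data and not from the labels. In the other comparisons not all such r passed 0.1. The genes, the related lists and the rule for naming list members (called, up to the 4 largest log2 differences per list and comparison) were chosen with earlier results of these data known. Of the genes that this rule takes, some of those whose call held without each single library are described, chosen after their values were seen. CREB1 and EP300 in the wild-type rescue against the knockdown fall outside the rule and were chosen likewise.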

Additional observations from a re-analysis of the deposited data

Results flagged for a closer look

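The effect of the D152V rescue and the effect of the wild-type rescue, both taken against the same knockdown, differed for FOSL1 and EGR1. The test of the difference is the contrast between the rescue groups, in which the shared knockdown drops out. FOSL1 was lower in the D152V rescue than in the wild-type rescue by a log2 difference of -1.09 (SE 0.19, limma adjusted p = 0.00323), with 3 of 3 D152V libraries below all wild-type libraries. EGR1 was higher by a log2 difference of 2.03 (SE 0.60, limma adjusted p = 0.0491), with 3 of 3 D152V libraries above all wild-type libraries. The range of limma adjusted p over all alternatives was 4.04e-05 to 0.0566 for FOSL1 and 3.46e-05 to 0.184 for EGR1. MYB itself was lower in the D152V rescue than in the wild-type rescue (log2 difference -0.44, limma adjusted p = 0.0494; 0.064 with the replicate block), and its part in either difference was not tested. Groups of 3 libraries are too small for a test of single deviating libraries.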

How the results depend on the processing

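Of 1488 log2 differences of the 10 genes under 25 alternatives, 1365 kept their side of the threshold, and 63 lost and 60 gained a call. None of the 10 genes changed sign while called. Over these genes, MYB and the named list genes, 62 differences changed sign while passing in neither setting. Numbers of genes called by limma moved as follows. With the replicate block, knockdown against control had 3 (EGR1, FOSL1, JUN) and D152V against wild-type rescue 4. The wild-type rescue against control had 3 (FOSB, FOSL1, JUN) and the D152V rescue against control 1 (EGR1). The block called 12.8%, 14.0%, 11.2% and 11.2% of all tested genes in these comparisons. Against the knockdown the block had 6 in the wild-type rescue, gaining FOS and FOSB, and 4 in the D152V rescue, gaining JUN. There it called 39.9% and 27.4% of all tested genes. In the first 4 comparisons named, the block and the length trend removed gave 3, 5, 4 and 1. The shares of all tested genes were 12.3%, 17.2%, 14.6% and 14.6%. The block in 11 libraries gave 4, 7, 6 and 2, but there 27.1%, 39.8%, 39.0% and 36.3% of all tested genes were called. The labels establish the replicate number as a pairing in no comparison. Between the rescues it was taken from correlated deviations in these same data, and the block was fitted over all 4 groups. Without a filter the wild-type rescue against the knockdown had 2, the D152V rescue against the knockdown 1 and D152V against wild type 1. Of all genes then tested, 15.7%, 9.48% and 6.91% were called. At an adjusted p under 0.01 the counts of members were 1, 0 and 1, beside 19.0%, 8.43% and 6.41% of all tested genes. With only the 6 libraries compared, the wild-type rescue had 1 and the D152V rescue 0 against the knockdown, and the wild-type rescue 3 against the control. Of all tested genes 12.6%, 4.09% and 26.2% were then called, so the 3 against the control are near the background. A pseudocount of 0.1 or a mean FPKM of at least 5 left 1 between the rescues (FOSL1), beside 11.7% and 9.44% of all genes tested. The higher filter left FOSB and ATF3 untested. Quantile normalization (JUND) and removal of the length trend (FOSL1) gave 1 in the knockdown against the control, beside 14.6% and 10.4%. Without the 4 libraries numbered 3, the counts were 2 and 1 for the wild-type and D152V rescues against the knockdown. They were 1 between the rescues (EGR1) and 0 for the wild-type rescue against the control. The shares of all tested genes in these 4 comparisons were 19.6%, 5.42%, 4.32% and 1.58%. Leaving out a single library gave 0 to 2 in the knockdown against the control (1.29% to 20.1% of all tested genes). The wild-type rescue against the knockdown had 1 to 5 (23.8% to 45.2%), and the D152V rescue against it 1 to 3 (12.2% to 32.8%). There were 1 to 3 between the rescues (7.62% to 31.4%) and 1 to 3 in the wild-type rescue against the control (5.09% to 29.7%). The D152V rescue against the control had 0 throughout (5.41% to 27.7%). The causes were not tested. Read depth is unknown, so no floor can be set for FOS and FOSB, the lowest genes. Of 95 calls named by rule in the related lists, 54 held without each single library.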

Other observations

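The F test of the replicate number in the limma fit with the block, run after the data were seen, also touched related genes. Without knockdown replicate 1, 673 of 13393 genes passed. Among them were 2 of 14 other AP-1 and leucine zipper genes (ATF4 and FOSL2), 5 of 24 other immediate early genes (CCN1, ID1, KLF10, SGK1 and TRIB1), 2 of 19 ERK feedback genes (DUSP1 and LIF) and 1 of 25 kinases and adaptors (SHC1), but no gene of the serum response factor list. DUSP1, an early phosphatase that inactivates ERK and JNK, was higher in number 3 than in number 1 by 0.79 on the log2 scale (limma adjusted p = 0.00348). With all 12 libraries 0 genes of these 5 lists passed, and DUSP1 had a log2 difference of 0.89 and a limma adjusted p of 0.0703.

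The mean of the 10 genes, each standardised over the 12 libraries, was followed most closely by FLYWCH2 (r = 0.959), CCNB1 (0.949), MYL4 (0.938), APOE (0.931) and AGPAT4 (0.925). These r values rest on libraries that share groups and replicate numbers.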
